A study of Homo sapiens with 12 samples.

Results

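PC3 cells carried 10 measured genes of serine, asparagine, proline and mitochondrial folate synthesis: PHGDH, PSAT1, PSPH, SHMT2, MTHFD2, MTHFD1L, ALDH1L2, ASNS, PYCR1 and ALDH18A1. They were taken by name from 43613 genes, and their counts are sums over the linear transcript rows of each gene. All 10 were in the table and all 10 passed the filter on low counts that left 19986 genes for testing. PC3 is a human prostate cancer line that grew from a bone metastasis, and the labels give its genotype as WT. RNA was sequenced in 4 groups of 3 libraries: PBS (BLANK), silver nanoparticles (AgNPs), DOC, and AgNPs together with DOC (COM). DOC is an abbreviation that the labels do not spell out, and they state neither dose, exposure time nor batch. Nothing in them says that libraries of a group came from separate cultures. The p-values therefore set each change against the spread between these libraries, which may be technical.

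Cells build serine from a glycolytic intermediate in 3 steps, catalysed in order by PHGDH, PSAT1 and PSPH. In mitochondria SHMT2 splits serine into glycine and a carbon unit carried by folate, which MTHFD2, MTHFD1L and ALDH1L2 oxidise or release. Purine and thymidylate synthesis use such units. ASNS makes asparagine from aspartate, and ALDH18A1 and PYCR1 carry glutamate to proline. Several of these genes are known targets of ATF4, the transcription factor of the amino acid and endoplasmic reticulum stress responses.

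Linear counts per library ranged from 22573481 to 22769479 in BLANK, 13049868 to 13362290 in AgNPs, 18603100 to 19421873 in DOC and 10996446 to 11069928 in COM. Depth therefore moved with the treatments, and so did the share of counts on RefSeq rows, from 86.2 to 86.9% in BLANK down to 83.7 to 84% in COM. Their part in the results was not tested, although with RefSeq rows alone no call on the 10 genes changed. On the second principal component DOC replicate 1 scored -4.69 where the remaining DOC libraries scored -9.67 and -9.7, and leaving it out changed no call on the 10 genes. Of 9 prostate epithelial markers 7 were measured, with KRT8, KRT18 and HOXB13 present. Their summed level was 918 to 943 CPM (counts scaled to library size) in BLANK, 893 to 903 in AgNPs, 796 to 871 in DOC and 733 to 770.2 in COM. The 8 fibroblast markers, which PC3 partly expresses (COL1A2 holds most of the sum), summed to 115 to 127 CPM in BLANK, 95.9 to 108 in AgNPs, 115 to 129 in DOC and 83.9 to 91.7 in COM, with DCN and LUM at 0 in every BLANK library. The 5 immune markers measured, of 7 listed, summed to 41.7 to 46.4 CPM in BLANK, 39.3 to 45.6 in AgNPs, 49.6 to 50.8 in DOC and 50.1 to 57.6 in COM, mostly CD68, with PTPRC at or below 0.103 CPM. The 4 endothelial markers summed to 7.58 to 8.2 CPM in BLANK, 8.41 to 9.5 in AgNPs, 9.8 to 10.5 in DOC and 9.67 to 10.6 in COM. The part of these markers in the results was not tested.

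Compared per length, as FPKM (fragments per kilobase per unit of library depth), the 10 genes spanned a wide range in BLANK. SHMT2 was highest at 141 ± 3.44 FPKM (SD, n = 3), followed by PHGDH at 84.4 ± 3.56. MTHFD2 (66.3 ± 2.99 FPKM) and PYCR1 (63 ± 2.49) came next and did not differ beyond their spread, then ALDH18A1 at 43.5 ± 0.367. MTHFD1L (37.9 ± 0.523 FPKM), PSAT1 (37.4 ± 1.71) and ASNS (35.2 ± 1.49) lay close together, with each neighbour's spread overlapping the next. PSPH stood at 16.3 ± 0.893 FPKM and ALDH1L2 at 0.333 ± 0.117. In COM ASNS, at 102 ± 2.41 FPKM, stood in the fourth place where it had been in the eighth, level within the spread with MTHFD2 at 104 ± 4.06. PSAT1, at 54.5 ± 2.5 FPKM, stood above ALDH18A1 (33.3 ± 1.26) and MTHFD1L (33.2 ± 2.04). In BLANK ALDH18A1 had been ahead of PSAT1, and MTHFD1L had been level with it within the spread.

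AgNPs against BLANK asks what silver nanoparticles alone changed. Of the 10 genes 6 rose, 2 fell and 2 did not pass the threshold. A gene counts as changed where its edgeR p, adjusted by Benjamini-Hochberg across the whole set of tested genes, was below 0.05. Over all genes 14.9% rose and 16% fell. The median log2 fold change was 0.33 for the 10 genes and 0.01 for all genes tested. DOC alone raised 0 of the 10, lowered 4 and left 6 short of the threshold, against 7.16% of all genes higher and 9.81% lower, with medians of -0.09 and 0.00. After COM 7 rose and 3 fell, against 25.1% and 24.5% of all genes, with medians of 0.38 and 0.03. In AgNPs all 3 libraries lay above every BLANK library for 6 of the 10 genes and below for 2, against 21.3% and 21.2% of all genes. In DOC these counts were 0 and 7 (14.7% and 16.8% of all genes), and in COM 7 and 3 (29.4% and 27.4%). The 3 comparisons share the BLANK libraries, so their values are set side by side below and not as independent evidence. In bulk RNA, fewer cells expressing a gene and less RNA per cell cannot be told apart.

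**Figure D1:**
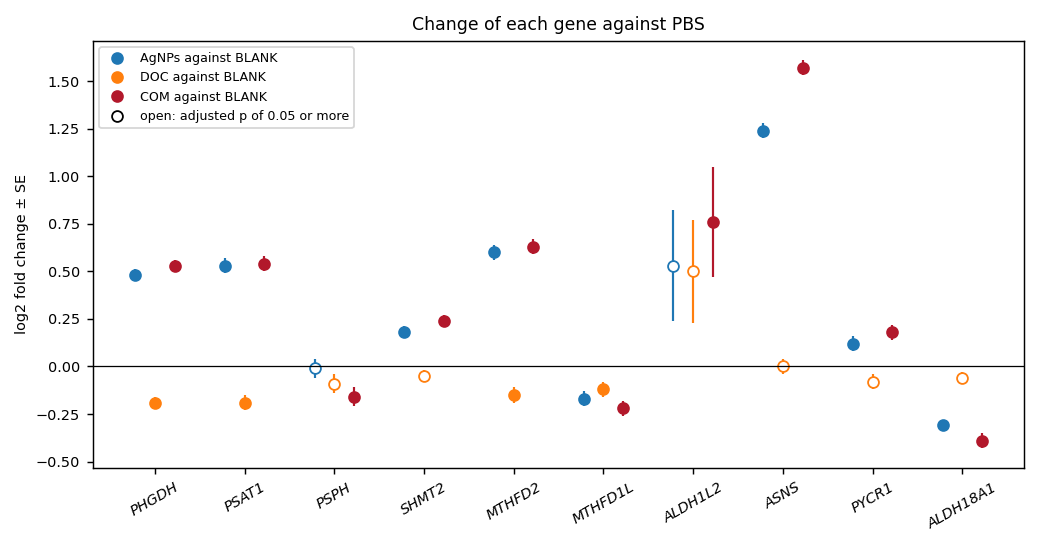
Log2 fold change (vertical axis, with standard error bars) of each of the 10 genes in AgNPs, DOC and COM against BLANK, 3 libraries per group, with open circles where the adjusted p was 0.05 or more. ASNS stands highest after AgNPs (1.24) and COM (1.57) and at 0.00 after DOC. ALDH18A1 and MTHFD1L lie below 0 after AgNPs and COM, as does PSPH, at -0.01 and -0.16.

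ASNS, the asparagine synthetase (chromosome 7, 97851677 to 97928441, GRCh38), had the largest change of the 10 after AgNPs and after COM. Its level was 70.6, 75.1 and 70.1 CPM in the BLANK libraries, 167, 173 and 169 CPM after AgNPs, 71.5, 73.9 and 71 CPM after DOC, and 217, 208 and 217 CPM after COM. The DOC libraries overlapped the BLANK libraries, the AgNPs libraries lay above both, and the COM libraries lay above the AgNPs libraries. ASNS rose 2.36-fold after AgNPs (log2 1.24 ± 0.04 SE, edgeR adjusted p = 1.98e-25) and 2.97-fold after COM (1.57 ± 0.04, adjusted p = 4.9e-29). After DOC its log2 fold change was 0.00 ± 0.04 (adjusted p = 0.971).

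Promoter windows from RefSeq (GRCh38.p14), 250 bases before to 50 after an annotated start, were matched to 6 of the 10 genes, in 10 windows. PSPH, SHMT2, ALDH1L2 and PYCR1 had no window in that table. Each window was searched on both strands for TGATGNAA, the core of the C/EBP-ATF response element that ATF4 binds with C/EBP proteins, and for TGACNNNGC, the core of the antioxidant response element that NRF2 binds. The windows of ASNS, which rose most, of PHGDH and PSAT1, which also rose, and of MTHFD1L, which fell, are shown so that they can be set against these changes. Capitals mark the TGATGNAA match. The ASNS window is chr7:97872359-97872658 on the minus strand, PHGDH chr1:119711684-119711983, PSAT1 chr9:78296875-78297174 and MTHFD1L chr6:150866197-150866496, these 3 on the plus strand.
ASNS: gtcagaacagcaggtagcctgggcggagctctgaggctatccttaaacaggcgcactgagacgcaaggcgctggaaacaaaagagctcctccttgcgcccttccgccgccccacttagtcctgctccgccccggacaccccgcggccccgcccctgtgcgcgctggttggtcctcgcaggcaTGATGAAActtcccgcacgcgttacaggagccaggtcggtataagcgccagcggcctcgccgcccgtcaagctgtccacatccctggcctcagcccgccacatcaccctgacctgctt
PHGDH: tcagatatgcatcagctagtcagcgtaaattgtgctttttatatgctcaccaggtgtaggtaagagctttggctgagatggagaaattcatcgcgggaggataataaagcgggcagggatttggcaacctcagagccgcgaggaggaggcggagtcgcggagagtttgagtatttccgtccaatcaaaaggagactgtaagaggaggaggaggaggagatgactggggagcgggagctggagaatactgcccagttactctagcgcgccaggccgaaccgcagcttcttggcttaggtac
PSAT1: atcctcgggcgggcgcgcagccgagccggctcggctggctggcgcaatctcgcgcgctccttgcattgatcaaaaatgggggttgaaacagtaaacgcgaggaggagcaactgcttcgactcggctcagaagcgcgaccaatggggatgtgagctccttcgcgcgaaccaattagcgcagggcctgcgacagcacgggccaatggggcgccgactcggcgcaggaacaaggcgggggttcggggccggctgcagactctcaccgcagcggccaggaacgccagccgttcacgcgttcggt
MTHFD1L: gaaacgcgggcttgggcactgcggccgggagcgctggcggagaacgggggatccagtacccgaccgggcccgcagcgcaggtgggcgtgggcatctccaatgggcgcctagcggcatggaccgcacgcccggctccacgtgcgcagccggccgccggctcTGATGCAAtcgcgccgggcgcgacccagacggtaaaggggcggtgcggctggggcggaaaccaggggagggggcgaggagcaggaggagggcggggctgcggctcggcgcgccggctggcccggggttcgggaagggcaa
The ASNS window held TGATGAAA 68 bases before the start, and the other ASNS window held no match. TGATGCAA stood once at MTHFD1L, 90 bases before the start shown, and the same site fell in 3 of its 4 windows. None of the 4 covers the start of NM_015440.4, the MTHFD1L row matched in GENCODE with the largest share of its counts (15.5% in BLANK), which lies upstream at 150865549. No match to these letters was found in the windows of PHGDH, PSAT1, MTHFD2 and ALDH18A1. TGACNNNGC was matched at 1 of the 6 genes, MTHFD2, on the minus strand 6 bases after the start. Among all 35116 RefSeq windows, 3.62% held TGATGNAA and 13.3% held TGACNNNGC. These matches describe letters in a window and do not show binding.

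Of the serine synthesis genes the first 2 in the pathway rose after AgNPs and fell after DOC. PHGDH, the dehydrogenase that opens the pathway (chromosome 1, 119711934 to 119744215), was at 161, 169 and 174 CPM in BLANK and at 231, 228 and 243 CPM after AgNPs. It was at 152, 145 and 145 CPM after DOC and at 234, 249.6 and 242 CPM after COM. The DOC libraries lay below and the AgNPs and COM libraries above every BLANK library, and AgNPs and COM overlapped. Its log2 fold changes were 0.48 ± 0.03 after AgNPs (edgeR adjusted p = 7.16e-14), -0.19 ± 0.03 after DOC (adjusted p = 0.000189) and 0.53 ± 0.03 after COM (adjusted p = 2.9e-15).

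PSAT1, the aminotransferase of the second step (chromosome 9, 78297125 to 78330093), was at 79.4, 85.7 and 80 CPM in BLANK and at 116, 116 and 121 CPM after AgNPs. After DOC it stood at 70, 70.7 and 73.5 CPM, and after COM at 113, 124 and 118 CPM. The groups were arranged as for PHGDH: DOC below BLANK, with AgNPs and COM above it and overlapping each other. Its log2 fold change was 0.53 ± 0.04 after AgNPs (edgeR adjusted p = 2.86e-13), -0.19 ± 0.04 after DOC (adjusted p = 0.000771) and 0.54 ± 0.04 after COM (adjusted p = 1.26e-13).

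PSPH, the phosphatase that completes serine (chromosome 7, 56011064 to 56051444), did not share this pattern. It was at 40.4, 43.2 and 42.5 CPM in BLANK, 42.4, 41.1 and 41.8 after AgNPs, 39.2, 39.9 and 39.2 after DOC and 37.6, 38.9 and 36.5 after COM. AgNPs overlapped BLANK, while the DOC and COM libraries lay below it. Only in COM did the difference from BLANK pass, at -0.16 ± 0.05 log2 (edgeR adjusted p = 0.0132), and without BLANK replicate 2 or COM replicate 3 it did not (adjusted p = 0.0691 and 0.0694). The AgNPs and DOC values were -0.01 ± 0.05 (adjusted p = 0.925) and -0.09 ± 0.05 (adjusted p = 0.205).

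**Figure D2:**
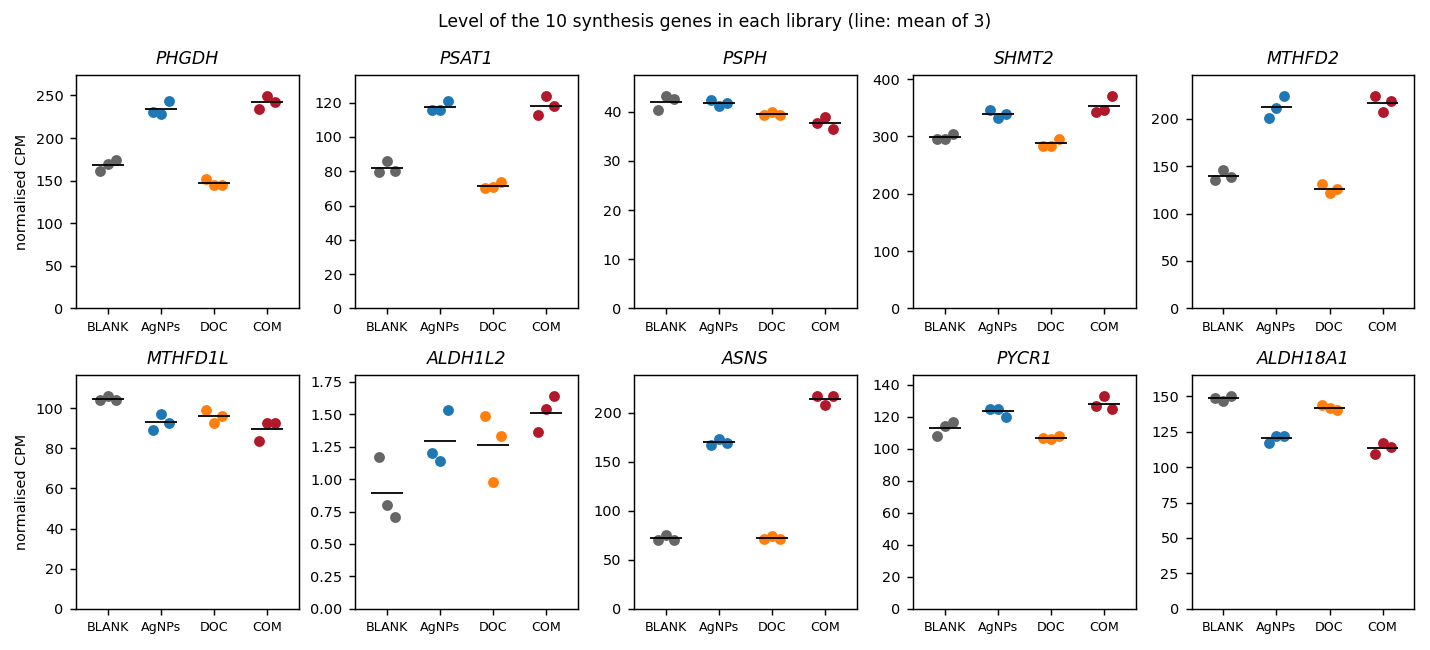
Normalised CPM of each gene in every library (points, coloured by group) with the mean of 3 libraries as a line, each panel starting at 0. ASNS, PHGDH, PSAT1 and MTHFD2 form a high pair of groups (AgNPs and COM) and a low pair (BLANK and DOC), and ALDH18A1 shows the reverse order.

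Among the mitochondrial folate genes, counted over all rows of each gene, MTHFD2 and SHMT2 rose and MTHFD1L fell after AgNPs and COM. For SHMT2 the direction differed between its transcript rows, as given with the row values below. MTHFD2, the dehydrogenase and cyclohydrolase of this branch (chromosome 2, 74198615 to 74217565), was at 135, 146 and 138 CPM in BLANK and at 200.2, 211 and 224 CPM after AgNPs. After DOC it was at 131, 122 and 126 CPM and after COM at 224, 207 and 219 CPM. The AgNPs and COM libraries were all above BLANK and overlapped each other, and the DOC libraries were all below BLANK. MTHFD2 rose 1.51-fold after AgNPs (log2 0.60 ± 0.04, edgeR adjusted p = 2.08e-13) and 1.55-fold after COM (0.63 ± 0.04, adjusted p = 2.59e-14). The fall after DOC, -0.15 ± 0.04 log2 (adjusted p = 0.00997), was no longer called without BLANK replicate 2 (adjusted p = 0.0821), without DOC replicate 2 (0.0591) or with limma-trend on FPKM (0.146 and 0.144).

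SHMT2, the mitochondrial serine hydroxymethyltransferase (chromosome 12, 57229711 to 57234935), was at 296, 296 and 305 CPM in BLANK, 346, 332 and 339.7 CPM after AgNPs, 284, 284 and 296 CPM after DOC and 342, 347 and 371 CPM after COM. All AgNPs and COM libraries were above BLANK, and DOC overlapped it. The log2 fold change was 0.18 ± 0.03 after AgNPs (edgeR adjusted p = 1.37e-05), -0.05 ± 0.03 after DOC (adjusted p = 0.244) and 0.24 ± 0.03 after COM (adjusted p = 4.13e-08). Rows starting in exon 1, which encodes the beginning of the mitochondrial signal, were lower in sum after AgNPs and COM. Their mean sum was 257 CPM in BLANK, 205 after AgNPs and 182 after COM. Rows starting in intron 1 had mean sums of 25, 92 and 124 CPM.

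MTHFD1L, which releases formate from folate (chromosome 6, 150865702 to 151101887), was at 104, 106 and 104 CPM in BLANK, 89.3, 97.2 and 92.8 after AgNPs, 99.2, 92.7 and 95.9 after DOC and 83.4, 92.6 and 92.5 after COM. Every treated library lay below every BLANK library, and the treated groups overlapped one another except that DOC lay above COM. It fell by 0.17 ± 0.04 on the log2 scale after AgNPs (edgeR adjusted p = 0.00157), by 0.12 ± 0.04 after DOC (adjusted p = 0.0245) and by 0.22 ± 0.04 after COM (adjusted p = 3.07e-05). With limma-trend on FPKM the AgNPs call was lost (adjusted p = 0.229). The DOC call was lost with limma-trend (adjusted p = 0.519 and 0.52) and when BLANK replicate 2 or 3 or DOC replicate 2 or 3 was left out (adjusted p = 0.094, 0.0555, 0.13 and 0.052).

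ALDH1L2, the mitochondrial dehydrogenase that oxidises formyl-folate to carbon dioxide (chromosome 12, 105019790 to 105084458), was near the limit of detection, with 234 counts over all 12 libraries. It was at 1.17, 0.798 and 0.71 CPM in BLANK, 1.2, 1.14 and 1.53 after AgNPs, 1.49, 0.977 and 1.33 after DOC and 1.36, 1.54 and 1.64 after COM, where 3 counts were worth 0.132 to 0.273 CPM. COM lay above BLANK and the other groups overlapped BLANK. The COM difference, 0.76 ± 0.29 log2 (edgeR adjusted p = 0.0302), was lost with DESeq2 (0.102), without the count filter (0.0898) and without BLANK replicate 2 or 3 or COM replicate 2 or 3 (0.0808, 0.107, 0.0762 and 0.0988). Per length it was at 0.333 ± 0.117 FPKM in BLANK and 0.3 ± 0.0889 in COM. The values after AgNPs and DOC, 0.53 ± 0.29 and 0.50 ± 0.27, did not pass (adjusted p = 0.179 and 0.216).

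The proline genes moved in opposite directions after AgNPs and after COM. ALDH18A1, which starts the route from glutamate (chromosome 10, 95605941 to 95656711), was at 149, 147 and 150.2 CPM in BLANK, 117, 122 and 122 CPM after AgNPs, 144, 142 and 140.3 CPM after DOC and 109, 117 and 114 CPM after COM. Every treated library lay below BLANK, and the AgNPs and COM libraries also lay below those of DOC. It fell by 0.31 ± 0.03 on the log2 scale after AgNPs (edgeR adjusted p = 6.1e-09) and by 0.39 ± 0.04 after COM (adjusted p = 1.06e-11), with -0.06 ± 0.03 after DOC (adjusted p = 0.179).

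PYCR1, the mitochondrial reductase that completes proline (chromosome 17, 81932391 to 81937300), was at 108, 114 and 117 CPM in BLANK, 125, 125 and 120.2 after AgNPs, 107, 106 and 108 after DOC and 127, 133 and 125 after COM. AgNPs and COM lay above BLANK and DOC below it. The rise over all rows was small, 0.12 ± 0.04 log2 after AgNPs (edgeR adjusted p = 0.00854) and 0.18 ± 0.04 after COM (adjusted p = 7.06e-05). The AgNPs call was lost with no count filter (adjusted p = 0.0659) and without BLANK replicate 1 (0.0676). After DOC the value was -0.08 ± 0.04 (adjusted p = 0.101), which passed without BLANK replicate 1 (0.0359). Its transcript rows differed in direction, and their estimates are given with no test. XM_005256381.2 had mean levels of 40.8 CPM in BLANK, 31.8 after AgNPs and 20.9 after COM. In the same order NM_001330523.1 was at 33, 39.7 and 49.5 CPM, NM_006907.3 at 19.7, 30.3 and 34, and NM_001282279.1 at 16, 18.5 and 20.1.

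COM against AgNPs asks what DOC added to cells that also had nanoparticles. Only ASNS passed, 1.26-fold higher (log2 0.33 ± 0.03, edgeR adjusted p = 5.93e-09), so 1 of the 10 rose and 0 fell, against 9.87% and 12% of all genes. The median over the 10 genes was 0.04, against 0.01 over all genes. All COM libraries lay above the AgNPs libraries for ASNS and PYCR1 and below them for PSPH, so for 2 and 1 of the 10, against 17.9% and 19.2% of all genes. PHGDH, PSAT1 and MTHFD2 were at 0.05 ± 0.04, 0.01 ± 0.04 and 0.03 ± 0.04 (adjusted p = 0.384, 0.929 and 0.598), which does not show that they were equal. PSPH, at -0.15 ± 0.06 (adjusted p = 0.0549), passed with RLE factors (0.0469), with no count filter (0.044) and with limma-trend (0.0169 and 0.0171). ALDH18A1, at -0.09 ± 0.04 (adjusted p = 0.087), passed with no filter (0.0486) and without AgNPs replicate 1 (0.0461) or COM replicate 2 (0.0482).

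COM against DOC asks the converse, what AgNPs added to cells that had DOC. Here 6 of the 10 rose and 1 fell, against 18.1% and 18.5% of all genes, with medians of 0.28 and -0.00. The COM libraries lay all above the DOC libraries for 6 genes and all below for 3 (22.5% and 22.7% of all genes). The 6 were ASNS (1.57 ± 0.04 log2), MTHFD2 (0.78 ± 0.04), PSAT1 (0.73 ± 0.04), PHGDH (0.71 ± 0.04), SHMT2 (0.29 ± 0.03) and PYCR1 (0.27 ± 0.04). ALDH18A1 fell by 0.33 ± 0.04. MTHFD1L, at -0.10 ± 0.04 (edgeR adjusted p = 0.0662), passed without DOC replicate 2 (0.0377), without COM replicate 2 (0.0439) and with no filter (0.0123).

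The interaction measures departure from additivity on the log2 scale, as the change that DOC made in cells with AgNPs less its change in cells without them. It passed the threshold as positive for 2 of the 10 genes and as negative for 0, against 0.731% and 0.375% of all genes, with medians of 0.13 and -0.01. ASNS had 0.33 ± 0.05 (edgeR adjusted p = 0.000182) and PHGDH 0.23 ± 0.05 (adjusted p = 0.00822). For ASNS, DOC made 0.00 without and 0.33 with AgNPs, and for PHGDH it made -0.19 without and 0.05 with them. PSAT1 and MTHFD2, at 0.20 ± 0.06 and 0.18 ± 0.06, did not pass (adjusted p = 0.0904 and 0.156). The PHGDH call was lost without AgNPs replicate 2 (adjusted p = 0.0679), without COM replicate 2 (0.0645) and with limma-trend on FPKM (0.199 and 0.204).

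The counts of SHMT2 were spread over 12 rows, and their shares differed between groups. Exon 1 of its main transcript NM_005412.5 (57229327 to 57229811, start codon at 57229779, GENCODE v29 on GRCh38) is known to encode the beginning of the mitochondrial targeting signal. NM_001166357.1, NM_001166358.1 and NM_001166359.1 start in the intron after it and have their start codon in exon 2 (57230803 to 57231000), at 57230833. Such transcripts are known to encode a form without that signal. The start codons of the other rows that start in this intron were not looked up. The 3 rows that start in exon 1 summed to 263, 245 and 263 CPM in BLANK, 221, 195 and 198 after AgNPs, 233, 228 and 246 after DOC and 155, 194 and 198 after COM. The 6 rows that start in intron 1 summed to 22.5, 31.1 and 21.5 CPM in BLANK, 86, 91.6 and 98.4 after AgNPs, 27.8, 33.7 and 29 after DOC and 127, 114 and 129.6 after COM. Thus the summed intron 1 rows were higher in every AgNPs and COM library than in any BLANK or DOC library. The summed exon 1 rows were lower in every AgNPs and COM library than in any BLANK or DOC library. Within the exon 1 rows NM_005412.5 fell, with mean levels of 250.2 CPM in BLANK, 190.4 after AgNPs, 223 after DOC and 157 after COM. NR_029417.1, which has a RefSeq accession for non-coding RNA, went the other way in mean level, at 6.82, 14.2, 13 and 25.5 CPM. The sums by start therefore do not count protein forms.

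As a share of SHMT2 counts, the intron 1 rows made up 8.38 ± 1.86% (SD, n = 3) in BLANK, 27.2 ± 2.08% after AgNPs, 10.5 ± 1.2% after DOC and 35 ± 2.2% after COM. The exon 1 rows went from 86 ± 2.96% in BLANK to 60.4 ± 3.13%, 81.8 ± 1.58% and 51.6 ± 5.56%, and 3 rows not matched to a start held 5.62, 12.5, 7.75 and 13.4%. Within the intron 1 rows NM_001166359.1 went from 0.994 ± 0.483% in BLANK to 11.3 ± 0.81% after AgNPs, 0.974 ± 0.45% after DOC and 14.7 ± 1.9% after COM. NM_001166357.1 went from 1.04 ± 0.229% to 8.12 ± 0.264%, 1.97 ± 0.945% and 12.5 ± 1.44%. NM_001166358.1, which starts in the same intron, did not follow them, at 4.9 ± 1.16%, 4.26 ± 1.81%, 7.07 ± 0.296% and 3.42 ± 0.815%. These row counts are estimates that divide reads among transcripts sharing most exons, and the rows were grouped after their values were seen, so they are given with no test.

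ASNS showed a smaller shift between rows. NM_001673.4 held 81.8 ± 2.52% of its counts in BLANK, 69.1 ± 3.82% after AgNPs, 74.2 ± 5.74% after DOC and 59.2 ± 2.29% after COM. NM_183356.3, which starts 71 bases further upstream and was also chosen after its values were seen, held 14.1 ± 1.75%, 23.8 ± 4.14%, 20.1 ± 5.9% and 34.4 ± 0.754%. Both rows were higher in every AgNPs and COM library than in any BLANK or DOC library, from 58.1 to 59.4 CPM in BLANK to 126 to 128 CPM in COM for the former and from 8.62 to 11.7 to 73.1 to 74.7 CPM for the latter. The overlapping non-coding gene CZ1P-ASNS was at mean levels of 5.27 CPM in BLANK, 6.43 after AgNPs, 6.13 after DOC and 8.68 after COM. Whether the counting used strand is not given in the sources used here, so reads of the 2 genes may not be fully separated. The genes that overlap SHMT2 and MTHFD2, COXFA4L2 and SLC4A5, reached mean levels of at most 2.99 and 1.18 CPM. Pseudogene copies of ASNS, PSAT1, PSPH and MTHFD2 are annotated, and the counting could divide reads among them, so these genes are uncertain to that extent. The copies ASNSP1 and MTHFD2P1 had mean levels of at most 0.0519 CPM, and the others were not among the 43613 genes.

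**Figure D3:**
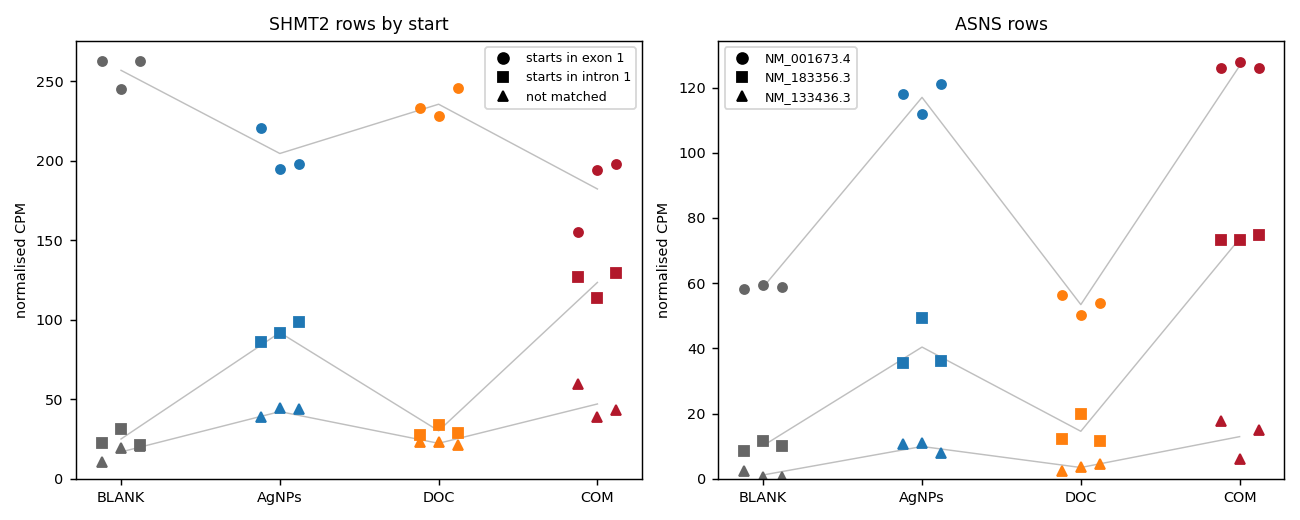
Normalised CPM (vertical axis) in each library for SHMT2 rows summed by where they start (left) and for 3 ASNS rows (right), with grey lines joining group means. SHMT2 rows starting in intron 1 lie at 86 CPM or more in AgNPs and COM and at 33.7 CPM or less in BLANK and DOC, while rows starting in exon 1 are lower in AgNPs and COM.

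The other genes listed with folate metabolism fell more often than they rose. Of 18 tested genes listed under cytosolic folate metabolism and transport, 0 rose and 6 fell after AgNPs. These counts were 0 and 7 after DOC and 2 and 11 after COM. The medians were -0.08, -0.11 and -0.25 against 0.01, 0.00 and 0.03 over all genes. This list also holds the mitochondrial genes MTHFD2L and MTFMT and the carriers SFXN1, SFXN3 and SLC25A28, which are not folate carriers. SFXN1 and SFXN3 were among the 6 that fell after AgNPs. Of all genes tested 14.9% rose and 16% fell after AgNPs, 7.16% and 9.81% after DOC, and 25.1% and 24.5% after COM, and the counts of this and the following lists are to be read against these shares and medians. SHMT1, the cytosolic counterpart of SHMT2, was at 33.5, 31.1 and 34 CPM in BLANK and at 23.2, 24.5 and 23 CPM after COM. It fell by 0.20 ± 0.06 on the log2 scale after AgNPs, by 0.24 ± 0.06 after DOC and by 0.48 ± 0.07 after COM (edgeR adjusted p = 0.0141, 0.00401 and 2.33e-07). MTHFD1, the cytosolic counterpart of MTHFD2 and MTHFD1L, fell by 0.20 ± 0.03, 0.18 ± 0.03 and 0.49 ± 0.03. TYMS, the thymidylate synthase, fell by 0.41 ± 0.04, 0.21 ± 0.04 and 0.74 ± 0.04, and the folate carrier SLC19A1 by 0.31 ± 0.04, 0.28 ± 0.04 and 0.81 ± 0.05. SFXN1, the mitochondrial serine carrier, fell by 0.29 ± 0.04, 0.14 ± 0.04 and 0.49 ± 0.04. MTHFD2L, the close relative of MTHFD2, did not pass in any comparison with BLANK (0.05 ± 0.06, 0.01 ± 0.06 and 0.01 ± 0.06). ALDH1L1, the cytosolic relative of ALDH1L2, was at 0 in all libraries but 1 and was not tested.

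Purine synthesis, which takes up folate-bound carbon and glycine, held genes that fell and none that rose. Of 12 tested genes 10 fell after AgNPs, 8 after DOC and 12 after COM, against 16%, 9.81% and 24.5% of all genes, and the medians were -0.23, -0.10 and -0.37. PFAS, an amidotransferase of the pathway, fell by 0.41 ± 0.04, 0.19 ± 0.03 and 0.71 ± 0.04, and PAICS, which acts after it, by 0.25 ± 0.03, 0.09 ± 0.03 and 0.43 ± 0.03. Of 7 tested glycine genes 1 rose and 2 fell after AgNPs, 0 and 2 after DOC, and 0 and 3 after COM (medians -0.06, -0.16 and -0.22), where 16%, 9.81% and 24.5% of all genes fell. Among them GCSH, a subunit of the glycine cleavage system, fell by 0.27 ± 0.05, 0.18 ± 0.04 and 0.52 ± 0.05.

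The other lists were mixed. Of 11 tested genes of the methionine cycle and transsulfuration 4 rose and 3 fell after AgNPs, 1 and 3 after DOC, and 5 and 4 after COM (medians 0.09, -0.01 and 0.13). The shares of all genes were 14.9% and 16%, 7.16% and 9.81%, and 25.1% and 24.5%. CTH, which makes cysteine from cystathionine, rose by 1.70 ± 0.11, 0.48 ± 0.12 and 2.24 ± 0.11 on the log2 scale. CBS, which makes cystathionine from serine and homocysteine, rose by 0.55 ± 0.07 after AgNPs, fell by 0.51 ± 0.07 after DOC and rose by 0.21 ± 0.07 after COM. Methionine synthase MTR fell by 0.24 ± 0.04, 0.18 ± 0.04 and 0.55 ± 0.04, and AHCY, which hydrolyses adenosylhomocysteine, by 0.20 ± 0.03, 0.18 ± 0.03 and 0.42 ± 0.03. Of 9 tested serine-using genes 3 rose and 1 fell after AgNPs, none passed after DOC, and 3 rose and 3 fell after COM (medians 0.22, -0.05 and 0.04). SERINC1 and SERINC3, membrane proteins named for serine incorporation, rose by 0.40 ± 0.05 and 0.47 ± 0.04 after AgNPs and by 0.68 ± 0.05 and 0.62 ± 0.04 after COM.

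Of 9 other tested proline and ornithine genes 3 rose and 2 fell after AgNPs, 0 and 2 after DOC, and 3 and 2 after COM (medians 0.03, -0.08 and 0.02). After COM these counts lie close to the 25.1% and 24.5% of all genes. PYCR3, a cytosolic relative of PYCR1, was at 48.6, 52.1 and 47.6 CPM in BLANK and at 28.1, 25.2 and 27.6 CPM after COM. It fell by 0.40 ± 0.06, 0.22 ± 0.05 and 0.87 ± 0.06 after AgNPs, DOC and COM. ALDH4A1, which breaks proline down, did not pass (0.03 ± 0.12, -0.26 ± 0.11 and 0.03 ± 0.12), and PRODH, the enzyme before it in that route, was at or below 0.904 CPM and not tested. Of 9 tested aspartate and glutamate genes 3 rose and 3 fell after AgNPs, 0 and 3 after DOC, and 3 and 4 after COM (medians -0.01, -0.07 and -0.09). The mitochondrial alanine aminotransferase GPT2 rose by 0.53 ± 0.04 after AgNPs and 0.63 ± 0.04 after COM and fell by 0.12 ± 0.04 after DOC. GOT1, the cytosolic aspartate aminotransferase, rose by 0.39 ± 0.06 and 0.60 ± 0.06, while its mitochondrial relative GOT2 fell by 0.19 ± 0.03 and 0.22 ± 0.03.

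Of 9 transcription regulators 8 rose and 1 fell after AgNPs, 2 rose and 3 fell after DOC, and 8 rose and 1 fell after COM (medians 0.67, -0.07 and 0.89). ATF4 was at 204, 195 and 206 CPM in BLANK, 319, 315 and 327 after AgNPs, 199, 189 and 188 after DOC and 368, 378 and 375 after COM. ATF4 was highest in COM, with no overlap between COM and AgNPs, and so were ATF3, DDIT3, CEBPB, ATF5, TRIB3 and NFE2L2. Of all genes 17.9% had every COM library above every AgNPs library. CEBPG overlapped, at 64.8 to 69.8 CPM after AgNPs and 69.5 to 74.5 CPM after COM. ATF3 and DDIT3, stress-induced transcription factors, also rose after DOC alone, by 1.13 ± 0.08 and 0.53 ± 0.10 on the log2 scale (edgeR adjusted p = 6.98e-13 and 0.000382), and by 2.99 ± 0.06 and 2.04 ± 0.09 after AgNPs and 3.97 ± 0.06 and 2.52 ± 0.09 after COM. For ATF4 the log2 fold changes were 0.67 ± 0.03 after AgNPs (edgeR adjusted p = 1.92e-19), -0.07 ± 0.03 after DOC (adjusted p = 0.113) and 0.89 ± 0.03 after COM (adjusted p = 1.75e-23), and its interaction was 0.29 ± 0.04 (adjusted p = 0.000101). The interaction passed as positive for 5 of the 9 regulators and as negative for 0, against 0.731% and 0.375% of all genes. MYC, the 1 regulator that fell after AgNPs and after COM, fell by 0.50 ± 0.03, 0.11 ± 0.03 and 0.74 ± 0.03. TRIB3, an ATF4 target that restrains it, rose by 1.31 ± 0.04 after AgNPs and by 1.51 ± 0.04 after COM and was at -0.12 ± 0.05 after DOC.

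**Figure D4:**
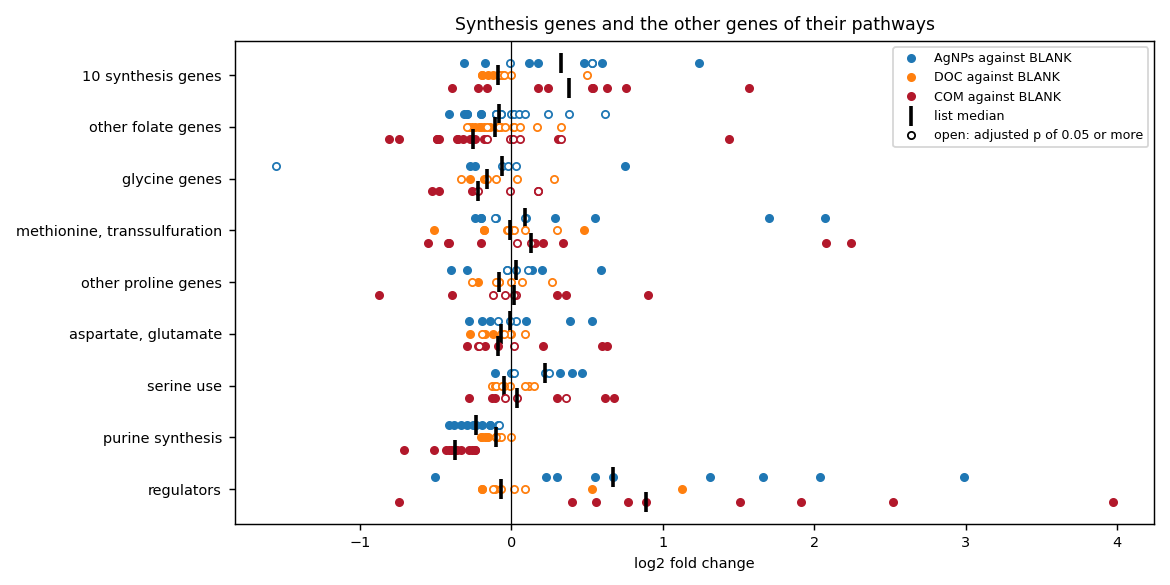
Log2 fold change (horizontal axis) of every tested gene in the 10 synthesis genes and 8 related lists for AgNPs, DOC and COM against BLANK, with list medians as black ticks and open circles where the adjusted p was 0.05 or more. The purine medians lie at -0.23, -0.10 and -0.37, while the medians of the 10 synthesis genes lie at 0.33, -0.09 and 0.38.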

How the data were processed

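RNA of PC3 cells was read in 12 libraries. Per the labels' protocols total RNA was extracted with TRIzol and libraries were made with a BGI mRNA kit. The submitters' processing notes name HISAT2, Bowtie2 2.2.5, RSEM and GRCh38, with no role given. The deposited table of 221796 rows holds the authors' expected counts per transcript and, from its values, the authors' FPKM. Its 10 columns of group means were not used. Expected counts of the 177700 linear rows were summed by gene and rounded. FPKM was summed the same way for levels. Symbols came from a RefSeq table, which named 27206 of the 43613 genes.

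Counts were fitted in R 4.3.3 with edgeR 4.0.16: TMM, filterByExpr, robust quasi-likelihood over all 12 libraries, and 1 coefficient per group. Tests were two-sided. Alternatives used RLE factors, DESeq2 1.42.0, no filter, 1 CPM in 3 libraries, a replicate block, only the groups compared, RefSeq rows only, each library left out, and limma-trend (limma 3.58.1) on log2(FPKM + 1) or log2(FPKM + 0.1). The fit was also run on simulated data, whose outcome is not reported here and is not used as support. The floor of 3 counts covers counting error only.

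The 10 genes and all lists were chosen with earlier results of these data known. Named besides the 10 are SHMT1, MTHFD1, MTHFD2L, ALDH1L1, TYMS, PYCR3, PRODH, ALDH4A1 and ATF4, and up to 4 called genes of each pathway list with the smallest adjusted p in a comparison. A few genes that this rule or the marker lists take are not reported here. Markers of other cell types serve as checks.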

Additional observations from a re-analysis of the deposited data

Results flagged for a closer look

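The DOC effect on ASNS differed between cells with and without AgNPs: the interaction was 0.33 ± 0.05 on the log2 scale (edgeR adjusted p = 0.000182, 3 libraries per group). All 3 COM libraries lay above all 3 AgNPs libraries, while DOC and BLANK overlapped. Over the alternatives its adjusted p ranged from 5.08e-06 to 0.0263.

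For PHGDH the same difference was 0.23 ± 0.05 (edgeR adjusted p = 0.00822). All 3 DOC libraries lay below all 3 BLANK libraries, while COM and AgNPs overlapped. Over the alternatives its adjusted p ranged from 0.000499 to 0.204.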

How the results depend on the processing

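Of 1235 values of the 10 genes under an alternative, 1198 kept their side of the threshold, 26 lost the call and 11 gained it. A change of direction was counted only where a value passed in the main or the alternative fit, and 0 were found. Values that passed in neither could change sign, as PSPH after AgNPs did (-0.04 to 0.05). Of 60 results on single genes, 49 kept their side of the threshold under every alternative run. With limma-trend on log2(FPKM + 1) and log2(FPKM + 0.1), 1 of the 10 genes fell after AgNPs (2 with edgeR), 2 fell after DOC (4 with edgeR), 1 fell in COM against AgNPs (0 with edgeR), and 1 had a positive interaction past the threshold (2 with edgeR). The same fits called 1173 and 1191 genes after DOC (3391 with edgeR) and 57 and 56 for the interaction (221 with edgeR). In COM against AgNPs, 1 of the 10 fell with RLE factors and 2 with no filter, and in COM against DOC 2 fell with no filter (1 in the main analysis). The cause was not tested. Leaving out each library in turn, genes called after DOC ranged from 2204 (without DOC replicate 2) to 4027 (without DOC replicate 1), and those of the interaction from 115 (without AgNPs replicate 2) to 269 (without DOC replicate 1). Those of the 10 genes that fell after DOC ranged from 2 (without BLANK replicate 2 or DOC replicate 2) to 5 (without BLANK replicate 1), those that fell in COM against AgNPs from 0 to 1, those that fell in COM against DOC from 1 to 2, and positive interactions past the threshold from 1 (without AgNPs replicate 2 or COM replicate 2) to 2. Interaction counts were also below 221 by over 1.5 times without AgNPs replicate 1 (144), AgNPs replicate 3 (131), COM replicate 2 (119) and COM replicate 3 (136).

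Whether replicate numbers pair the libraries was not settled. Correlations of deviations ranged from -0.24 to 0.27 over 18 same-numbered pairs and from -0.26 to 0.31 over 36 other pairs (11425 genes). These ranges pool all groups and cannot exclude pairing between some of them. Between AgNPs and COM same-numbered pairs had 0.161, 0.202 and 0.131, and the other pairs -0.217 to 0.089. Between BLANK and DOC same-numbered pairs had -0.159, -0.048 and -0.097. With a replicate block 6039 genes were called after AgNPs, 3206 after DOC, 9812 after COM and 176 for the interaction, and no call on the 10 genes changed. At 15 to 28 counts a library, depth limits what can be said of ALDH1L2.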
